A study of Mus musculus with 16 samples.

Results

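The 10 genes described here act in nutrient sensing: the sirtuins Sirt1, Sirt3 and Sirt5, the transcription factors Foxo1 and Foxo3, the insulin and IGF pathway genes Irs2, Igf1r and Igfbp1, and the mTOR regulators Tsc1 and Ddit4. They are the rows of the deposited table, 10 of 46078 genes, whose gene name matched that list. RNA was measured in kidneys of C57BL/6 mice aged 20 weeks, perfused and harvested 72 h after an intraperitoneal injection. Each of the 4 groups held 4 libraries, 16 in all. BL_vehicle mice had no preconditioning and received saline, and BL_cisplatin mice had no preconditioning and received cisplatin, a platinum drug that injures the kidney tubule. CR_cisplatin mice received cisplatin after 4 weeks of calorie restriction. HP_cisplatin mice received it after hypoxia of 2, 4 and 8 h on 3 consecutive days, ending at least 1 h before the injection. No group had either preconditioning with saline, so calorie restriction or hypoxia alone was not measured. Nothing in the labels ties a library to its own mouse, so the p-values cover the spread among these samples, which may be partly technical.

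Sirtuins are NAD+-dependent deacylases, and Sirt3 and Sirt5 work inside mitochondria, while Sirt1 is mainly nuclear. When insulin or IGF binds its receptor, IRS proteins recruit PI3-kinase, and AKT then holds FOXO factors out of the nucleus and relieves the brake that the TSC complex puts on mTORC1, the kinase complex that drives growth. When nutrients are scarce AKT falls silent, FOXO factors enter the nucleus and raise genes such as Irs2, Igfbp1 and Pdk4, and mTORC1 is held back. In the kidney the proximal tubule depends on mitochondrial oxidation and also makes glucose, so these signals meet there.

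Values are TPM, reads of a gene per base of exon, scaled to a sum of 1000000 per library. A difference is one of log2(TPM + 1), with its standard error (SE) and a p-value from limma, adjusted by the Benjamini-Hochberg method over all genes tested. A gene was called higher or lower when its adjusted p was under 0.05. All 10 genes had at least 1 TPM in at least 4 libraries and were tested. Reads recovered from the table came to 49137815 to 62546605 per library. Proximal tubule markers were detected in every group. They summed to 2782 to 3372 TPM in vehicle, 125 to 220 in BL_cisplatin, 2618 to 3167 in CR_cisplatin and 192 to 2600 in HP_cisplatin libraries. Injured tubule markers summed to 1.23 to 4.28, 1200 to 1277, 2.95 to 11.2 and 5.01 to 1433 TPM in the same order. HP_cisplatin 4 and CR_cisplatin 4 were the closest of all 120 pairs of libraries, with a mean absolute log2 difference of 0.0951 per gene against 0.137 for the next pair, so hypoxia results are also given without HP_cisplatin 4. Library titles begin with 1 of 2 codes: BL_cisplatin 1 to 4 and CR_cisplatin 1 carry the first, all others the second. For BL_cisplatin against vehicle or HP_cisplatin, the title code and the group therefore cannot be told apart. CR_cisplatin 1 is the only library of another group that shares the code of BL_cisplatin. A fit with the title code as a term therefore estimates that term from CR_cisplatin 1 against the rest of its group.

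After cisplatin without preconditioning the mitochondrial sirtuin Sirt3 was 3.63-fold lower than in vehicle. Sirt5, Igf1r and Igfbp1 were lower as well, and Irs2 and Ddit4 were higher. After calorie restriction and the same drug, all 6 of these genes overlapped the vehicle libraries. With the title code as a term, only Sirt3 and Igfbp1 of the 6 kept their call in BL_cisplatin against vehicle. In BL_cisplatin against vehicle 6 of 10 members were called, 2 higher and 4 lower, where 66.8% of all 15014 genes tested were called (38% higher and 28.8% lower). In CR_cisplatin against BL_cisplatin 7 of 10 were called, 4 higher and 3 lower, where 67.3% of all genes were (29.8% higher and 37.4% lower). The libraries did not overlap for 5 members in the first comparison and for 6 in the second, beside 63.5% and 64.8% of all genes. Members were thus called about as often as genes in general. The comparisons share the BL_cisplatin libraries, so their values stand side by side and do not count as independent. The median member difference was 0.03 in the first and -0.06 in the second, beside 0.08 and -0.08 over all genes.

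**Figure D1:**
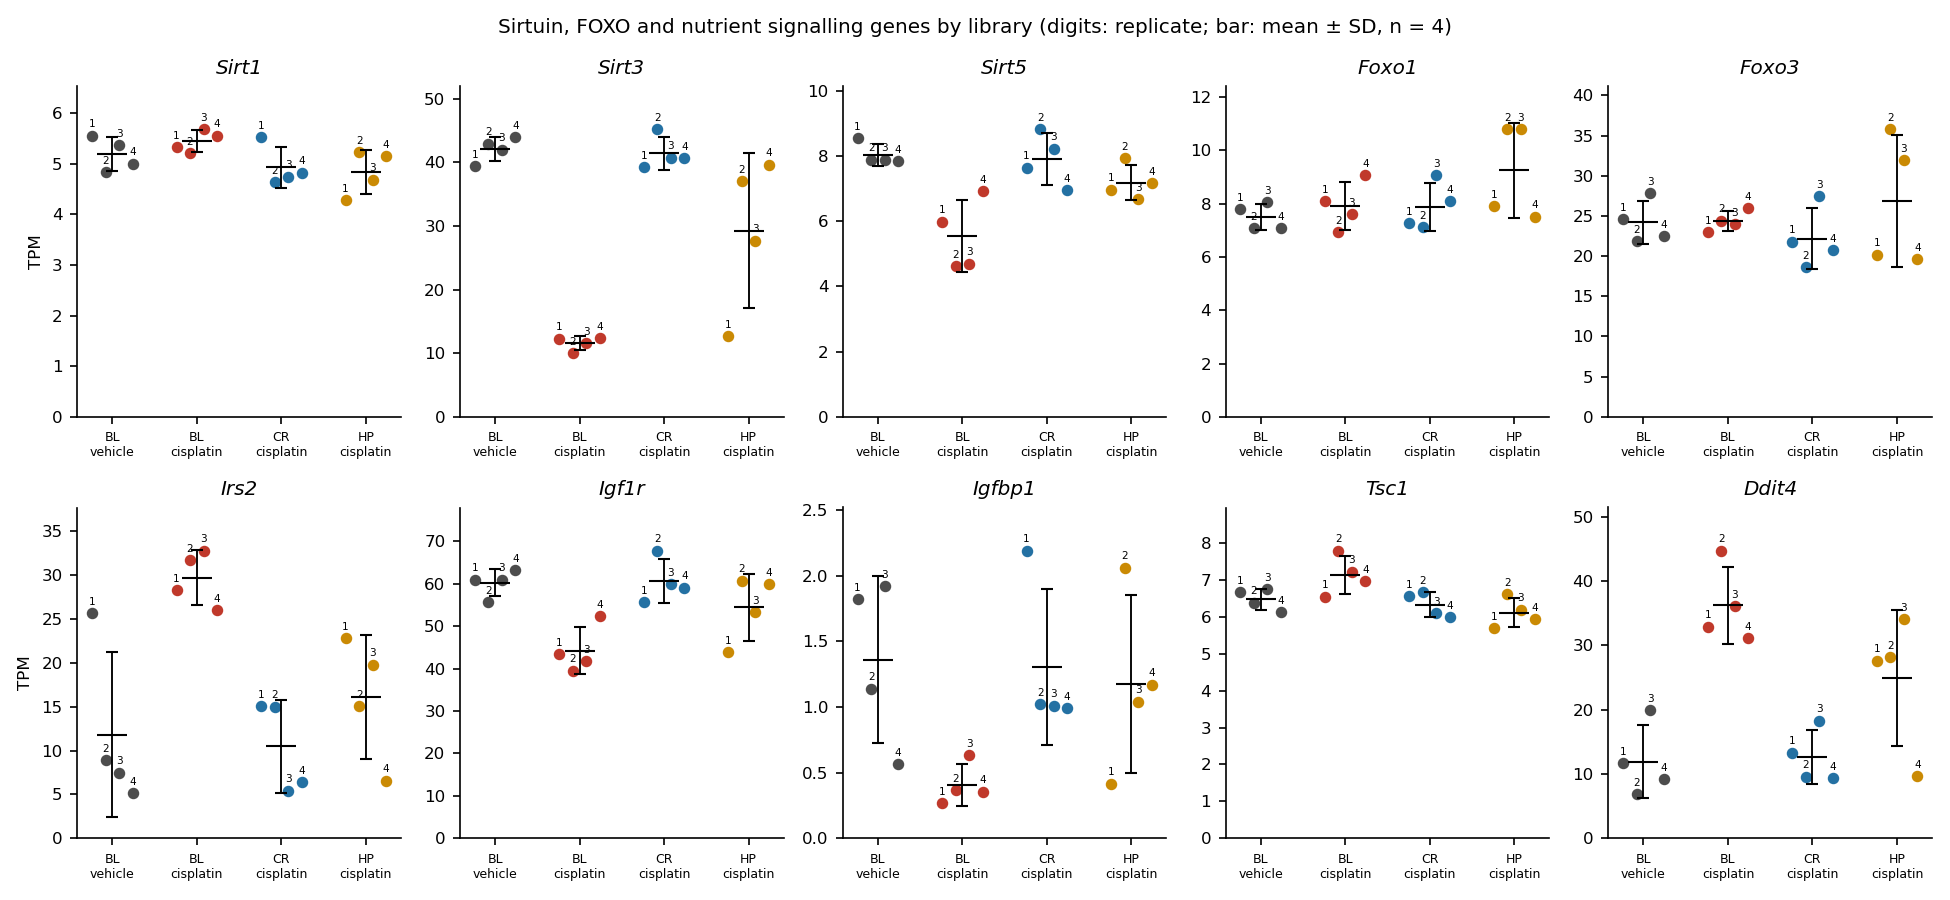
TPM of the 10 genes in each of the 16 libraries, by group, with 1 point per library (the digit is its number within the group) and the mean ± SD of 4 libraries as bars. Sirt3 lies at 9.98 to 12.4 TPM in BL_cisplatin and at 39.2 to 45.2 in CR_cisplatin, while the 4 HP_cisplatin libraries run from 12.7 to 39.6.

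**Figure D2:**
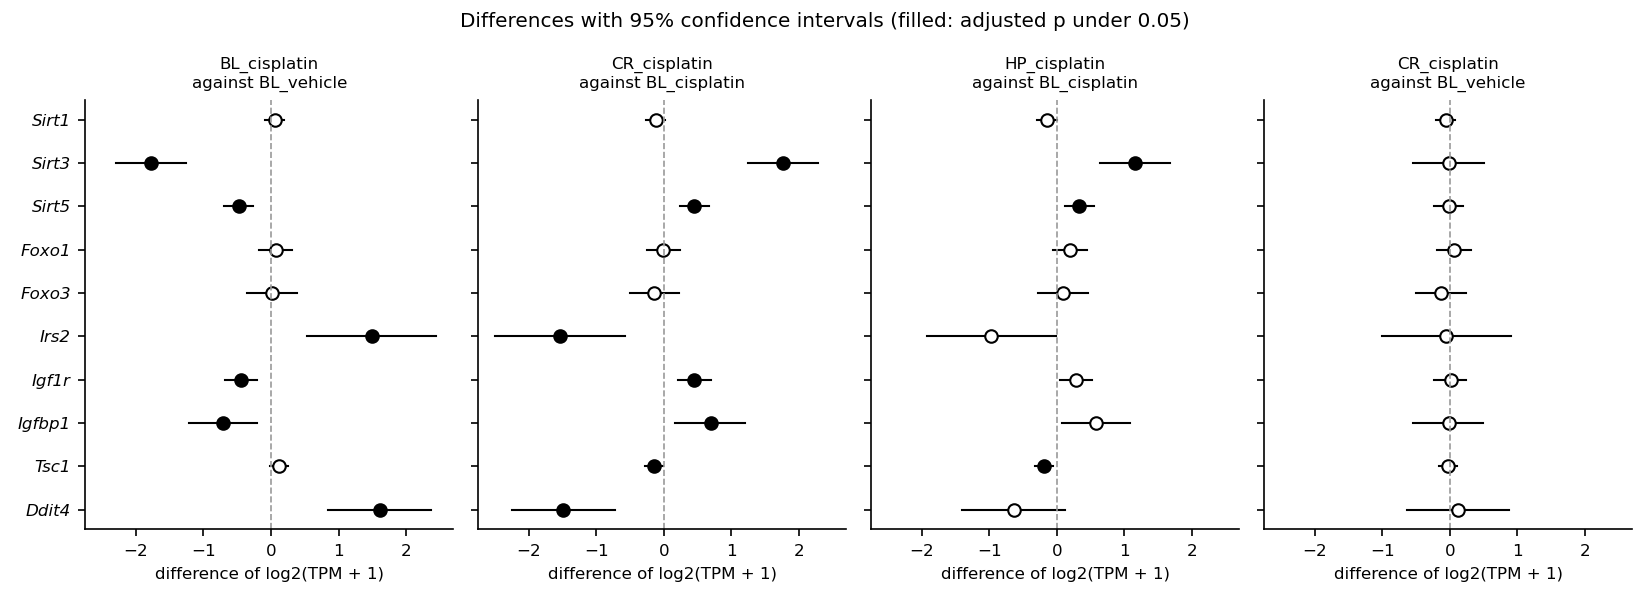
Differences of log2(TPM + 1) for the 10 genes in 4 comparisons, with 95% confidence intervals from limma and filled points for an adjusted p under 0.05. Points in CR_cisplatin against BL_vehicle lie near 0 and none is filled, and Irs2 has the widest interval there, -1.01 to 0.91.

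Sirt3 (ENSMUSG00000025486; GRCm38 chromosome 7, 140863666 to 140882309, minus strand), the main mitochondrial deacetylase, had the clearest difference among the members. It measured 39.4, 42.9, 42.0 and 43.9 TPM in BL_vehicle 1 to 4, and 12.3, 9.98, 11.6 and 12.4 TPM in BL_cisplatin 1 to 4. The lowest vehicle library was thus far above the highest BL_cisplatin library, and the groups differed 3.63-fold (difference -1.78, SE 0.24, limma adjusted p = 5.63e-05). CR_cisplatin 1 to 4 measured 39.2, 45.2, 40.7 and 40.6 TPM, 3.58-fold above BL_cisplatin (1.76, SE 0.24, limma adjusted p = 6.47e-05). The difference kept its call in both comparisons with the title code as a term (-1.68, limma adjusted p = 0.0374, and 1.68, limma adjusted p = 0.0106). CR_cisplatin 1, which shares the title code of BL_cisplatin, measured 39.2 TPM against at most 12.4 there. Group means ordered vehicle 42.0, CR_cisplatin 41.4, HP_cisplatin 29.3 and BL_cisplatin 11.6 TPM, and the first pair did not differ beyond its spread (-0.02, 95% confidence interval -0.54 to 0.5). Proximal tubule markers fell with Sirt3, as given above, and their part in it was not tested. In a whole kidney, fewer cells of a type and less RNA per cell cannot be told apart.

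Sirt5 (ENSMUSG00000054021; chromosome 13, 43365496 to 43395203, plus strand), which removes succinyl and malonyl groups from mitochondrial proteins, moved the same way by less. It measured 8.54, 7.88, 7.88 and 7.84 TPM in vehicle and 5.98, 4.61, 4.70 and 6.91 TPM in BL_cisplatin. All BL_cisplatin libraries lay below all vehicle libraries, and the groups differed 1.45-fold (-0.48, SE 0.1, limma adjusted p = 0.000905). CR_cisplatin measured 7.64, 8.82, 8.22 and 6.95 TPM, above every BL_cisplatin library, though CR_cisplatin 4 by a narrow margin (0.45, SE 0.1, limma adjusted p = 0.00132). With the title code as a term the call was lost in both comparisons (-0.43, limma adjusted p = 0.122, and 0.41, limma adjusted p = 0.0594). Sirt5 stood far below Sirt3 in TPM in every vehicle library. The deposited values of these genes rest on lengths of 1570 bases for Sirt3 and 1367 for Sirt5, and their union of exons in GENCODE M21 is 5973 and 6093 bases.

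Sirt1 (ENSMUSG00000020063; chromosome 10, 63319005 to 63381704, minus strand), the nuclear deacetylase most often linked to calorie restriction, stayed within a narrow range. Across all 16 libraries it ran from 4.28 to 5.68 TPM, a 1.33-fold span. Vehicle measured 5.55, 4.83, 5.37 and 5.0 TPM, BL_cisplatin 5.32, 5.21, 5.68 and 5.55 TPM and CR_cisplatin 5.52, 4.63, 4.74 and 4.82 TPM. These groups overlapped, and neither cisplatin against vehicle (0.06, limma adjusted p = 0.461) nor CR_cisplatin against BL_cisplatin (-0.12, limma adjusted p = 0.129) passed the threshold. The test depended on scaling. The median gene moved by 0.08 in BL_cisplatin against vehicle with TPM, by 0.17 without the most abundant RNAs and by 0.24 with voom on recovered reads, an analysis of reads rather than TPM. With voom Sirt1 was called higher after cisplatin (0.2, limma adjusted p = 0.0246), yet below that median, and with the title code as a term its sign turned (-0.13). In CR_cisplatin against BL_cisplatin Sirt1 was called lower with voom (-0.27, limma adjusted p = 0.00423, where the median gene moved by -0.22), without the most abundant RNAs (-0.21, limma adjusted p = 0.024, median gene -0.175) and without CR_cisplatin 1 (-0.17, limma adjusted p = 0.0493).

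The other sirtuins were called in both comparisons, all 4 of 4, beside 66.8% and 67.3% of all genes. After cisplatin alone Sirt6, a chromatin deacetylase, rose from 2.13 to 3.69 TPM (0.58, SE 0.13, limma adjusted p = 0.000986). Sirt7, the nucleolar sirtuin, fell from 9.91 to 6.82 TPM (-0.48, SE 0.09, limma adjusted p = 0.00024), and Sirt2, the mainly cytoplasmic tubulin deacetylase, fell from 13.3 to 11.3 TPM (-0.22, limma adjusted p = 0.00665). Sirt4, the remaining mitochondrial sirtuin, fell from 4.53 to 3.61 TPM (-0.26, limma adjusted p = 0.0145). Thus all 3 mitochondrial sirtuins were lower in BL_cisplatin than in vehicle, with differences of -1.78 for Sirt3, -0.48 for Sirt5 and -0.26 for Sirt4. This direction was not particular to them, since Sirt7 (-0.48) and Sirt2 (-0.22) were lower by amounts like those of Sirt5 and Sirt4.

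Upstream in the pathway, Igf1r (ENSMUSG00000005533; chromosome 7, 67952827 to 68233668, plus strand), the receptor for IGF-1, was lower after cisplatin alone. It measured 61.0, 55.7, 61.0 and 63.2 TPM in vehicle and 43.4, 39.5, 41.8 and 52.3 TPM in BL_cisplatin, with no overlap. The groups differed 1.36-fold (-0.44, SE 0.11, limma adjusted p = 0.00276). CR_cisplatin measured 55.7, 67.8, 59.9 and 59.1 TPM, all above BL_cisplatin (0.45, SE 0.11, limma adjusted p = 0.00248) and spanning the vehicle range. The title code as a term ended both calls (-0.29, limma adjusted p = 0.317, and 0.33, limma adjusted p = 0.14). The related receptor Insr, chosen for mention after its values were seen, measured 19.8 ± 0.4 TPM in vehicle and 18.2 ± 1.79 in BL_cisplatin (SD, n = 4 each) and was not called (-0.12, limma adjusted p = 0.385).

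Irs2 (ENSMUSG00000038894; chromosome 8, 10984681 to 11008458, minus strand), the adaptor that couples the insulin receptor to PI3-kinase, was higher after cisplatin alone. It measured 28.3, 31.7, 32.8 and 26.0 TPM in BL_cisplatin and 25.7, 8.92, 7.48 and 5.18 TPM in vehicle. BL_vehicle 1 alone came close to the BL_cisplatin range, and the others were below 9 TPM. The means differed 2.51-fold (1.49, SE 0.45, limma adjusted p = 0.00894), and leaving out each library in turn gave 1.22 to 1.93. CR_cisplatin measured 15.1, 15.0, 5.42 and 6.38 TPM, below every BL_cisplatin library (-1.54, SE 0.45, limma adjusted p = 0.00751). With the title code as a term neither call was kept (0.67, limma adjusted p = 0.561, and -0.92, limma adjusted p = 0.297). Irs1, the sister adaptor, chosen for mention after its values were seen, ran the other way: 6.78 ± 1.14 TPM in vehicle, 3.0 ± 0.457 in BL_cisplatin and 7.05 ± 0.421 in CR_cisplatin (SD, n = 4 each). It fell after cisplatin alone (-0.95, SE 0.18, limma adjusted p = 0.000321).

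Igfbp1 (ENSMUSG00000020429; chromosome 11, 7197782 to 7202546, plus strand) encodes a secreted IGF-binding protein that fasting raises in the liver. It was the least abundant member, at 1.82, 1.14, 1.92 and 0.563 TPM in vehicle and 0.267, 0.368, 0.634 and 0.355 TPM in BL_cisplatin. These values rest on 32 to 122 reads in vehicle and 15 to 37 reads in BL_cisplatin. BL_vehicle 4 lay inside the BL_cisplatin range, and the means differed 3.34-fold (-0.71, SE 0.24, limma adjusted p = 0.0172). CR_cisplatin measured 2.19, 1.02, 1.01 and 0.993 TPM, all above BL_cisplatin (0.69, SE 0.24, limma adjusted p = 0.0204). A difference of log2(TPM + 1) understates so low a gene: voom on recovered reads gave -1.53 and 1.52. The first call was lost without BL_vehicle 1 (limma adjusted p = 0.0539) or BL_vehicle 3 (0.0565), and the second without BL_cisplatin 1 (0.0502) or CR_cisplatin 1 (0.0735). With the title code as a term both calls held at larger values (-1.38, limma adjusted p = 0.0405, and 1.19, limma adjusted p = 0.019). That term is estimated only from CR_cisplatin 1 against the other CR_cisplatin libraries. CR_cisplatin 1 stood apart for Igfbp1, at 2.19 TPM against 0.993 to 1.02, so the larger values rest on that library. Igfbp1 is best known as a liver transcript, so the hepatocyte markers Alb, Ttr, Apoa1 and Serpina1a are given beside it. They summed to 75.5 to 111 TPM in vehicle, 42.8 to 74.8 in BL_cisplatin, 52.1 to 131 in CR_cisplatin and 43.0 to 58.5 in HP_cisplatin. None of the 4 was at 0 in a whole group, and Alb stayed at 0.156 to 3.55 TPM. Ttr ran with Igfbp1, while Apoa1 and Serpina1a ran against it, and the part of these markers in the result was not tested.

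The 250 bases before the RefSeq start (GRCm38.p6) of Igfbp1 and Irs2 are shown because these were the only member promoters that held the insulin response core, CAAAACA on either strand. Capitals mark that core and the hypoxia response core, ACGTG on either strand, to which HIF binds. In Irs2 a pair of overlapping ACGTG matches forms CACGTG just before the insulin response core.
Igfbp1, plus strand, chr11:7197537-7197786: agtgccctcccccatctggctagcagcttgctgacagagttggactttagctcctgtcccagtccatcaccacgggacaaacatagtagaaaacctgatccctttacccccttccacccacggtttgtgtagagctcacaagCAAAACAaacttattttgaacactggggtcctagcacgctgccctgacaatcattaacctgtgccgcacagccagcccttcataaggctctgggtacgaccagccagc
Irs2, minus strand, chr8:11008930-11009179: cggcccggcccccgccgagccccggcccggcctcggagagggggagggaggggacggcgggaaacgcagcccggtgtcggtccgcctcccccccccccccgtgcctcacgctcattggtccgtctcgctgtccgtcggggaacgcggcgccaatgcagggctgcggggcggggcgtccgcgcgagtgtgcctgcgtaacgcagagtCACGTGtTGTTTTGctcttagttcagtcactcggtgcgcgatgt
The insulin response core was present in 2 of 11 member windows (Sirt3 has 2 starts), and in 5.56% of 32851 windows of the same length. The FOXO binding core, GTAAACA, was in none of the 11, against 3.17% of all windows. The hypoxia core ACGTG was in the windows of 4 members (Ddit4, Irs2, Sirt1 and Sirt5), against 16.6% of all windows. Irs2 and Igfbp1, which share the insulin response core, moved in opposite directions after cisplatin alone. A match says only that these letters are present.

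Foxo1 (ENSMUSG00000044167; chromosome 3, 52268336 to 52353221, plus strand) and Foxo3 (ENSMUSG00000048756; chromosome 10, 42181841 to 42276755, minus strand), the effectors that AKT holds back, were not called in either comparison. Foxo1 measured 7.79, 7.09, 8.06 and 7.09 TPM in vehicle, 8.09, 6.92, 7.61 and 9.08 TPM in BL_cisplatin and 7.26, 7.11, 9.07 and 8.10 TPM in CR_cisplatin. Foxo3 measured 24.6, 21.9, 27.8 and 22.5 TPM in vehicle, 23.0, 24.4, 24.0 and 26.0 TPM in BL_cisplatin and 21.8, 18.6, 27.5 and 20.7 TPM in CR_cisplatin. These 3 groups overlapped for both genes. After cisplatin alone the difference was 0.07 for Foxo1 (95% confidence interval -0.18 to 0.31, limma adjusted p = 0.628) and 0.01 for Foxo3 (-0.35 to 0.38, limma adjusted p = 0.952). The transcript level says nothing of phosphorylation or location, through which FOXO activity is mainly set.

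Ddit4 (ENSMUSG00000020108; chromosome 10, 59949669 to 59951834, minus strand), also called REDD1, is a stress-induced inhibitor that acts on mTORC1 through the TSC complex. Its promoter window held 1 hypoxia core, 187 bases before the RefSeq start, and the matches in Sirt5 (48 bases before) and Sirt1 (the nearer one, 43 bases before) are shown with it.
Ddit4: gaacgttgcgaACGTGcgcccggtgcc
Sirt5: ttggcaccaggACGTGgagcgccccgc
Sirt1: gaggggcgggtCACGTGacggggtttaa
Ddit4 measured 32.9, 44.7, 36.1 and 31.1 TPM in BL_cisplatin and 11.7, 6.89, 19.9 and 9.21 TPM in vehicle. Every BL_cisplatin library exceeded every vehicle library, and the means differed 3.04-fold (1.61, SE 0.36, limma adjusted p = 0.00122). CR_cisplatin measured 13.3, 9.56, 18.3 and 9.30 TPM, all below BL_cisplatin and spread like vehicle (-1.49, SE 0.36, limma adjusted p = 0.00214). With the title code as a term the calls were lost at similar sizes (1.45, limma adjusted p = 0.13, and -1.37, limma adjusted p = 0.0723). CR_cisplatin 1, under the title code of BL_cisplatin, measured 13.3 TPM against at least 31.1 there. Red blood cell markers summed to 15.8 to 25.4 TPM in vehicle, 0.292 to 1.12 in BL_cisplatin and 1.07 to 43.2 in CR_cisplatin, and their part in its differences was not tested. Among the 4 members with a hypoxia core, Ddit4 and Irs2 were higher, Sirt5 lower and Sirt1 not called after cisplatin alone.

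Tsc1 (ENSMUSG00000026812; chromosome 2, 28641228 to 28691167, plus strand), the stabilising partner of Tsc2 in the complex that turns Rheb off, changed least among the called genes. It measured 6.66, 6.38, 6.74 and 6.12 TPM in vehicle and 6.54, 7.79, 7.22 and 6.97 TPM in BL_cisplatin, which overlapped (0.12, SE 0.06, limma adjusted p = 0.0974). CR_cisplatin measured 6.56, 6.66, 6.10 and 5.98 TPM and was called lower than BL_cisplatin by a small margin (-0.15, SE 0.06, limma adjusted p = 0.0424), though BL_cisplatin 1 lay inside the CR_cisplatin range. That call was lost without a filter, with only those groups fitted, with the title code, and without 4 of the 8 libraries in turn (BL_cisplatin 2 or 3, CR_cisplatin 3 or 4), with adjusted p-values of 0.0572 to 0.417. In cisplatin against vehicle Tsc1 was called under voom (0.27, limma adjusted p = 0.00601), near the median shift of all genes there (0.24), as well as without the most abundant RNAs (0.19, limma adjusted p = 0.0234, median gene 0.17) and without BL_cisplatin 1 (0.16, limma adjusted p = 0.0494). Its partner Tsc2, the GTPase-activating subunit, chosen for mention after its values were seen, fell from 18.9 to 13.7 TPM (-0.45, SE 0.1, limma adjusted p = 0.00133).

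None of the 10 genes was called between calorie-restricted mice given cisplatin and vehicle mice. In CR_cisplatin against BL_vehicle limma called 0 of 10 members, 0 at an unadjusted p under 0.05, and voom also called 0. Over all genes limma called 8, 0.0533% (0.0133% higher and 0.04% lower), and 610 had an unadjusted p under 0.05. Every member overlapped between the groups, beside 9.16% of all genes that did not overlap. The 95% confidence intervals bound what could have been missed. For Sirt1 the interval was -0.21 to 0.08, for Sirt5 -0.24 to 0.19 and for Igf1r -0.23 to 0.24, while for Irs2 it was -1.01 to 0.91 and for Ddit4 -0.64 to 0.88. Since saline was not given to calorie-restricted mice, this comparison sets calorie restriction with cisplatin against neither.

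After hypoxia the members differed from library to library, and fewer were called. In HP_cisplatin against BL_cisplatin 3 of 10 were called, Sirt3 and Sirt5 higher and Tsc1 lower, where 29.4% of all genes were called (16.4% higher and 13.1% lower). A further 3 had an unadjusted p under 0.05 (Irs2, Igf1r and Igfbp1). The libraries did not overlap for 2 members, Sirt3 and Irs2, beside 15.5% of all genes. Without HP_cisplatin 4 only Sirt3 of the 10 was called, beside 19.2% of all genes, while without HP_cisplatin 1 there were 5 calls, beside 47.7%. Without BL_cisplatin 2 or without BL_cisplatin 3 there was 1 each (17.8% and 15.8% of all genes), and with only these groups in the fit there was none, as for all genes (0 of 15014, where 4273 had an unadjusted p under 0.05).

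Sirt3 measured 12.7, 37.0, 27.7 and 39.6 TPM in HP_cisplatin 1 to 4, so 1 library lay just above the BL_cisplatin range and another inside the vehicle range (1.16, SE 0.24, limma adjusted p = 0.007, and 0.98, limma adjusted p = 0.0163, without HP_cisplatin 4). With only the groups compared in the fit the difference was the same and not called (limma adjusted p = 0.113), as with the title code as a term (1.06, limma adjusted p = 0.464). Sirt5 measured 6.96, 7.94, 6.67 and 7.16 TPM, with HP_cisplatin 3 below the highest BL_cisplatin library (0.33, SE 0.1, limma adjusted p = 0.027). Its call was lost without HP_cisplatin 2 or 4 or BL_cisplatin 2 or 3 (limma adjusted p = 0.0806, 0.0509, 0.0805 and 0.0844). It was also lost with only the groups compared (limma adjusted p = 0.141) and with the title code as a term (0.545). Tsc1 measured 5.69, 6.62, 6.19 and 5.94 TPM, with a small difference (-0.19, SE 0.06, limma adjusted p = 0.0314). The Tsc1 call was likewise lost without HP_cisplatin 4 (limma adjusted p = 0.0637) and without BL_cisplatin 2 or 3 (0.0901 and 0.0748). The same held without a filter (0.0527), with only the groups compared (0.164) and with the title code as a term (0.628). Sirt1 measured 4.28, 5.22, 4.68 and 5.15 TPM in HP_cisplatin and was not called (-0.15, limma adjusted p = 0.114). It was called lower without the most abundant RNAs (-0.26, limma adjusted p = 0.0217, median gene -0.12) and with voom (-0.23, limma adjusted p = 0.0304, median gene -0.08).

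The position of each hypoxia library was read on a scale with 0 at the vehicle mean and 1 at the BL_cisplatin mean of log2(TPM + 1), for the 6 members called in that contrast. HP_cisplatin 1 lay at 0.93 for Sirt3, 1.02 for Igf1r, 0.98 for Igfbp1, 0.77 for Ddit4 and 0.76 for Irs2, near BL_cisplatin, and at 0.38 for Sirt5. HP_cisplatin 4 lay between -0.35 and 0.3 for the 6 genes, near vehicle. The injury marker Havcr1 measured 582 TPM in the former library and 0.473 in the latter, and the proximal tubule phosphate transporter Slc34a1 23.3 and 1509. In the other libraries Ddit4 had the highest position of the 6 genes. HP_cisplatin 2 lay at 0.79 for Ddit4, 0.38 for Irs2, 0.1 for Sirt3, 0.03 for Sirt5, -0.03 for Igf1r and -0.59 for Igfbp1. HP_cisplatin 3 lay at 0.96 for Ddit4, 0.63 for Irs2, 0.49 for Sirt5, 0.39 for Igf1r, 0.33 for Sirt3 and 0.23 for Igfbp1. No difference between these positions was tested. Ddit4 TPM were 27.6, 28.2, 34.1 and 9.67 in HP_cisplatin 1 to 4, so the first 3 stood above every vehicle library. In these libraries Havcr1 measured 582, 51.0, 409 and 0.473 TPM, and Sesn2, another stress-induced mTORC1 inhibitor picked after its values were seen, 42.3, 42.5, 43.6 and 13.6 TPM.

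**Figure D3:**
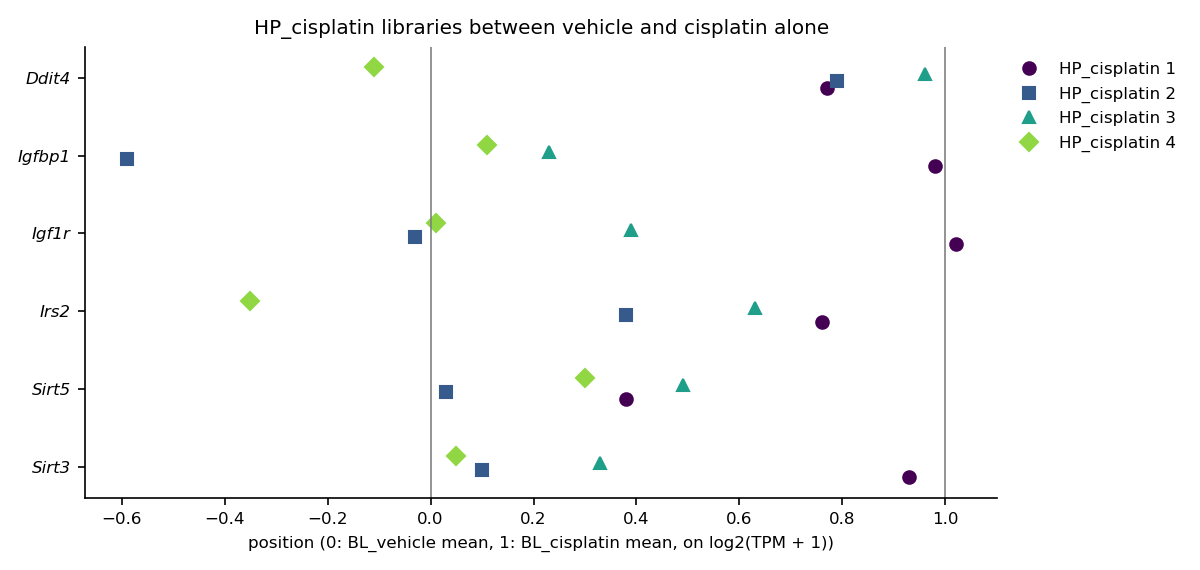
Position of HP_cisplatin 1 to 4 (symbols) for 6 genes, on a scale with 0 at the BL_vehicle mean and 1 at the BL_cisplatin mean of log2(TPM + 1). HP_cisplatin 1 is at 0.93 for Sirt3 and HP_cisplatin 4 at 0.05, while for Ddit4 the first 3 libraries are at 0.77 to 0.96.

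Against vehicle, hypoxia with cisplatin gave 0 of 10 calls with limma, where 29.3% of all genes were called (19.2% higher and 10.1% lower), and 3 members had an unadjusted p under 0.05. These were Ddit4 (0.97, SE 0.36, limma adjusted p = 0.0534), Sirt3 (-0.62, SE 0.24, limma adjusted p = 0.064) and Foxo1 (0.26, SE 0.12, limma adjusted p = 0.102). With voom Ddit4 (limma adjusted p = 0.0473) and Foxo1 (0.0368) were called, beside 33.7% of all genes. Without HP_cisplatin 4 these 3 of the 10 were called, beside 51.3% of all genes: Ddit4 at 1.35 (limma adjusted p = 0.00149), Sirt3 at -0.8 (0.0116) and Foxo1 at 0.34 (0.0208). Without BL_vehicle 3 Ddit4 alone was called (beside 17% of all genes), and without HP_cisplatin 2 Sirt3 alone (27.4%). Foxo1 measured 7.91, 10.8, 10.8 and 7.51 TPM in HP_cisplatin 1 to 4 and Foxo3 20.2, 35.8, 31.9 and 19.6 TPM. HP_cisplatin 2 and 3 held the highest values of both FOXO factors among all 16 libraries. Red blood cell markers summed to 13, 1.09, 1.17 and 32.5 TPM in HP_cisplatin 1 to 4 and the adipocyte markers Adipoq, Plin1 and Cfd to 0.441, 172, 8.6 and 57.6 TPM, and their part in the FOXO values was not tested. Igf1r measured 43.8, 60.7, 53.3 and 59.9 TPM, Irs2 22.8, 15.1, 19.8 and 6.57 TPM and Igfbp1 0.416, 2.06, 1.04 and 1.17 TPM. None of these 3 was called against vehicle, with differences of -0.15, 0.53 and -0.13.

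Beside the members, 97 other genes of these pathways stood in 5 lists, of which 93 were tested. After cisplatin alone 27 of the 93 were higher and 40 lower (72%), beside 66.8% of all genes. With the title code as a term 20 were called (21.5%, beside 22.7% of all genes). The median difference was -0.13, beside 0.08 over all genes. After hypoxia, 33 differed from BL_cisplatin (23 higher and 10 lower, 35.5%, beside 29.4% of all genes). The count was 21 without HP_cisplatin 4 (22.6%, beside 19.2%) and 56 without HP_cisplatin 1 (60.2%, beside 47.7%). None of the 93 was called in CR_cisplatin against vehicle, by limma or by voom. The lists were chosen with results of these data known, so their counts are descriptions.

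Among FOXO factors and textbook FOXO target genes, 7 of 19 were higher and 11 lower in BL_cisplatin than in vehicle. That is 94.7% of a list chosen with results of these data known, beside 66.8% of all genes. Pdk4, the kinase that shuts pyruvate oxidation and a classical fasting target, rose from 5.06 ± 2.76 to 140 ± 48.7 TPM (SD, n = 4 each, 4.59, SE 0.51, limma adjusted p = 3.81e-05). It measured 80.8, 43.0, 74.5 and 14.9 TPM in HP_cisplatin 1 to 4 and 7.56 ± 5.11 in CR_cisplatin (SD, n = 4). Other targets fell. The antioxidant enzyme catalase (Cat) went from 326 to 152 TPM (-1.1, limma adjusted p = 5.15e-05) and Klf15, a regulator of fasting metabolism, from 51.4 to 10.3 (-2.21, limma adjusted p = 6.42e-05). G6pc and Pck1, the gluconeogenic enzymes, were added after their values were seen. G6pc fell from 253 to 15.8 TPM (-3.93, limma adjusted p = 0.000114) and Pck1 from 928 to 497 (-0.93, limma adjusted p = 0.0394). The textbook targets thus did not move together, while Foxo1 and Foxo3 were not called. Proximal tubule markers fell in the same libraries, from 2782 to 3372 TPM in vehicle to 125 to 220 in BL_cisplatin. Their part in the values of these targets was not tested. Foxo4 fell from 6.10 to 4.96 TPM (-0.25, limma adjusted p = 0.0231).

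Of 28 insulin and IGF signalling genes tested, 7 were higher and 12 lower (67.9%). This was near the 66.8% of all genes called (38% higher and 28.8% lower). The growth hormone receptor Ghr fell from 88.8 to 31.1 TPM (-1.52, limma adjusted p = 6.08e-05), the adaptor Shc1 rose from 8.17 to 16.2 (0.91, limma adjusted p = 6.95e-05), and the AKT-binding pseudokinase Trib3 rose from 0.223 to 1.75 (1.17, limma adjusted p = 0.0001). Of 31 mTOR and nutrient sensing genes, 7 were higher and 12 lower (61.3%, beside 66.8% of all genes). Eif4ebp1, the translation repressor that mTORC1 phosphorylates, rose from 7.59 ± 1.24 to 59.7 ± 4.62 TPM (SD, n = 4 each, 2.83, limma adjusted p = 5.15e-05). Nprl2, of the amino acid sensing GATOR1 complex, fell from 13.2 to 6.07 TPM (-1.01, limma adjusted p = 4.75e-05), and the lysosomal scaffold Lamtor2 from 21.9 to 11.3 (-0.9, limma adjusted p = 5.15e-05). Sesn2 rose from 13.5 to 42.8 TPM (1.6, limma adjusted p = 0.000281), in the direction of Ddit4. Of 11 genes of AMPK, the energy sensor, and its partners, 5 were higher and 2 lower (63.6%, beside 66.8% of all genes). Its upstream kinase Camkk2 rose from 2.53 to 6.26 TPM (1.04, limma adjusted p = 4.3e-05) and its subunit Prkab1 from 11.5 to 22.5 (0.91, limma adjusted p = 7.64e-05). Ppargc1a, a coactivator of mitochondrial genes, fell from 17.1 to 7.46 TPM (-1.11, limma adjusted p = 0.000158).

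**Figure D4:**
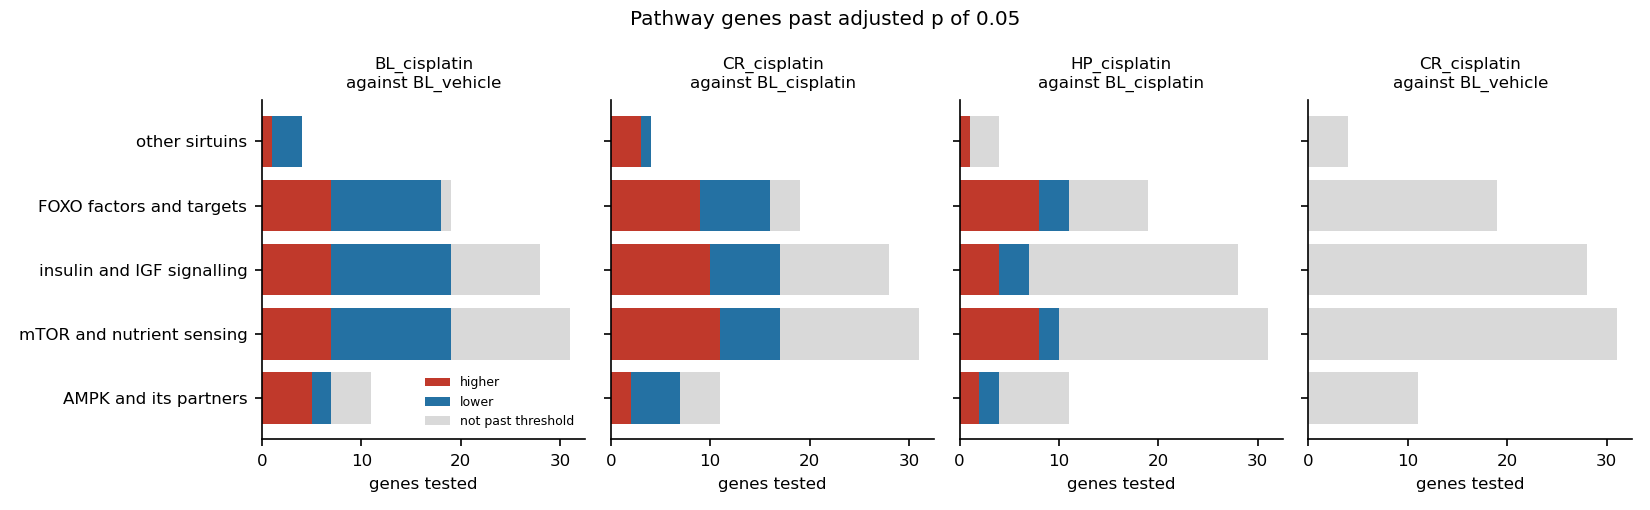
Number of genes in each of 5 pathway lists that were higher, lower or not past the threshold (limma adjusted p under 0.05) in 4 comparisons. Both directions occur in every list after cisplatin alone (7 higher and 11 lower of 19 for FOXO factors and targets), where 66.8% of all genes were called. No gene of the lists is past the threshold in CR_cisplatin against BL_vehicle, where 0.0533% of all genes were called.

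In the other direction, genes whose profile over the 16 libraries was nearest to each member were looked for among 11540 genes, by Euclidean distance between profiles scaled to mean 0 and SD 1. For Sirt3 these were Aldh6a1 (distance 0.33) and Gcdh (0.36), both mitochondrial enzymes of amino acid breakdown. Aldh6a1 measured 267, 80.4, 256 and 200 TPM as means of vehicle, BL_cisplatin, CR_cisplatin and HP_cisplatin. For Igf1r the nearest were Isca1 (0.78) and Ltn1 (0.88), and for Ddit4 Ppp1r2 (0.97) and Ip6k2 (1.11). The other members had no gene as near: the smallest distance was 1.3 for Irs2 (Zfp655), 1.33 for Sirt5 (Ythdf3), 1.34 for Foxo1 (Swsap1), 1.71 for Foxo3 (Inpp5d), 1.72 for Igfbp1 (Dand5), 2.06 for Tsc1 (Ago4) and 2.65 for Sirt1 (Dirc2).

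Spread within groups differed by gene. The coefficient of variation of 4 vehicle libraries was 4.61% for Sirt3 and 5.28% for Igf1r, but 79.4% for Irs2, 47.6% for Ddit4 and 46.7% for Igfbp1. In vehicle and CR_cisplatin Irs2 ran against Bcl6, a transcriptional repressor and FOXO target, a pair picked after the values were seen. Bcl6 measured 2.65, 3.81, 7.28 and 12.0 TPM in BL_vehicle 1 to 4, where Irs2 measured 25.7, 8.92, 7.48 and 5.18. In CR_cisplatin 1 to 4 Bcl6 measured 2.80, 2.70, 10.8 and 13.7 TPM, where Irs2 measured 15.1, 15.0, 5.42 and 6.38. The libraries with the highest Bcl6 were thus among those with the lowest Irs2 in both groups. HP_cisplatin 4 (13.2 TPM of Bcl6, 6.57 of Irs2) lay with them, but it was also the library closest to CR_cisplatin 4. In HP_cisplatin 1 to 3 Bcl6 measured 4.16, 3.56 and 3.13 TPM and Irs2 22.8, 15.1 and 19.8 TPM, so HP_cisplatin 1 had the highest of both there. Bcl6 was not called in BL_cisplatin against vehicle (-0.29, SE 0.52, limma adjusted p = 0.636). Ddit4, Foxo1 and Foxo3 shared another order: BL_vehicle 3 was the highest vehicle library and CR_cisplatin 3 the highest CR_cisplatin library for all 3. Library numbers follow the order of the labels and pair nothing across groups, and nothing in the labels sets these libraries apart. All 3 red blood cell markers (Hbb-bs, Hba-a1 and Hba-a2) had their lowest level of the group in the same libraries. These markers were not among the genes planned for naming. They summed to 15.8 TPM in BL_vehicle 3 against 21 to 25.4 in the other vehicle libraries, and to 1.07 TPM in CR_cisplatin 3 against 33.5 to 43.2 in the other CR_cisplatin libraries. Their part in the order of Ddit4, Foxo1 and Foxo3 was not tested.

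**Figure D5:**
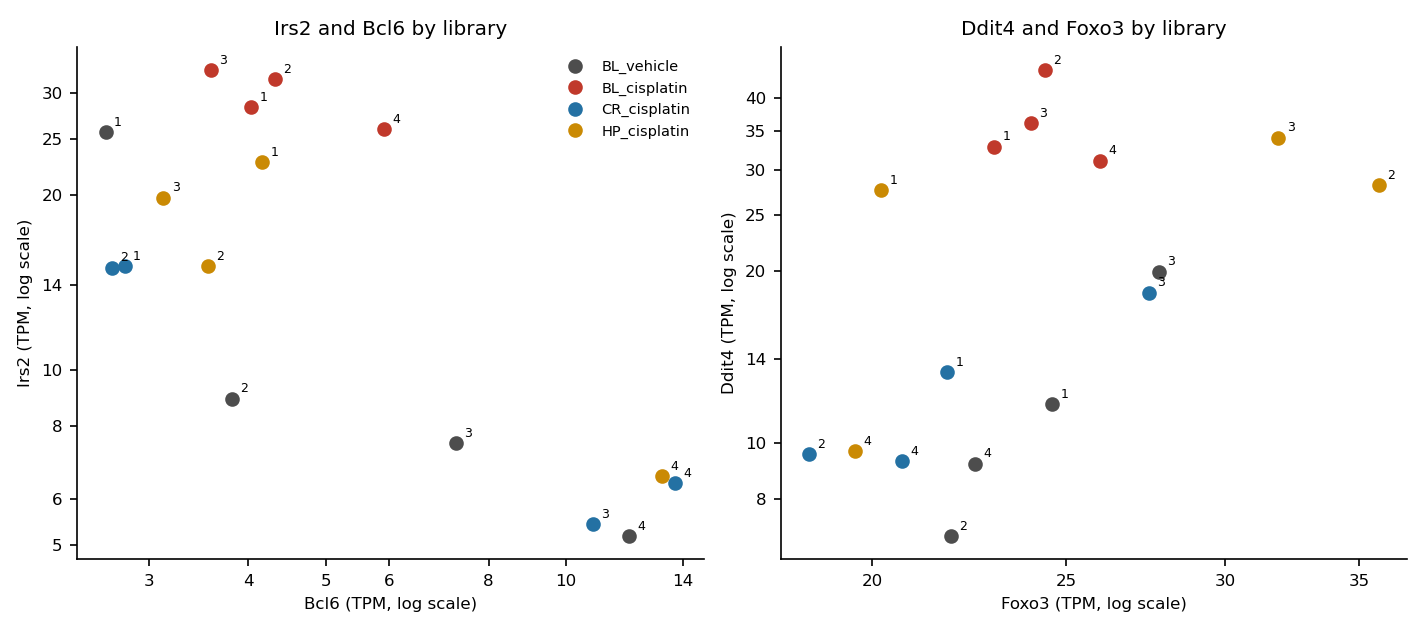
TPM of Irs2 against Bcl6 (left) and of Ddit4 against Foxo3 (right), on log axes, with 1 point per library coloured by group and numbered within it. The 4 libraries with Bcl6 above 10 TPM have Irs2 between 5.18 and 6.57 TPM, and BL_vehicle 3 and CR_cisplatin 3 are the highest of their groups for Ddit4 and Foxo3.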

How the data were processed

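Ribosomal RNA-depleted total RNA of mouse kidney was sequenced in 16 libraries of 4 groups. The deposited values are 1 table of TPM per gene, made by the authors, a unit read from column sums of 1000000. The submitters' processing notes name STAR 2.5, featureCounts, Subread 1.5, mm10 and GRCm38, with no role. Of 46078 genes, 13880 were at 0 in every library, and 45229 gene IDs were found in GENCODE M21, from which positions were taken.

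Groups came from the injection and preconditioning labels. The labels number no replicates, so libraries carry numbers in label order. The 10 members and the lists of pathway genes, markers and motifs were chosen with earlier results of these data known. The 15014 genes that reached 1 TPM in 4 or more libraries were analysed as log2(TPM + 1) with limma (version 3.58.1, R version 4.3.3, statmod version 1.5.0). Group was the only term, and the prior variance was trended and robust. Adjusted p-values are 2-sided Benjamini-Hochberg values within a comparison, with a threshold of 0.05. The fit used all 16 libraries, so the 4 groups share 1 estimate of the spread. The script was tested on simulated data.

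Named genes were all members, and per pathway list up to 3 genes with the smallest adjusted p in BL_cisplatin against BL_vehicle, 3 in CR_cisplatin against BL_vehicle and 2 in HP_cisplatin against BL_cisplatin. Added were the 2 genes nearest each member, Havcr1, Slc34a1 and the hepatocyte markers. The red blood cell markers, the adipocyte markers, Foxo4 and the genes marked as picked after their values were seen lie outside this rule. Some genes that the rule gives are left out.

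Reads were recovered from the steps between TPM values: 24591 genes came out whole in every library, within 0.001 reads, with the exon length of GENCODE M21, and 7599 with the smallest length that gave whole reads, together 99.98% of 32198 genes with reads. They served 1 alternative, voom, chosen after seeing the data. Precision is limited by 4 libraries per group, and for Igfbp1 by its few reads. Other alternatives were a pseudocount of 0.1, no filter, a filter of 5 TPM, only the groups compared, rescaling without mitochondrial, globin and the 10 most abundant genes, the title code as a term, the second code only, and leaving out each library in turn. Promoter sequences came from RefSeq (GRCm38.p6), in which all 10 members matched.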

Additional observations from a re-analysis of the deposited data

Results flagged for a closer look

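Of 40 groups of 4 libraries tested over the 10 members, 2 held a library that stood apart by Dixon's criterion, where chance gives about 1 in 20. Sirt5 measured 8.54 TPM in BL_vehicle 1 and 7.84 to 7.88 in the other vehicle libraries, a gap of 0.932 of the group's range. Igfbp1 measured 2.19 TPM in CR_cisplatin 1 and 0.993 to 1.02 in the other CR_cisplatin libraries, a gap of 0.981 of the range. CR_cisplatin 1 is also the only library of its group under the title code of BL_cisplatin, and it had the highest Ttr of that group, 97.1 TPM against 25.9 to 41.3.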

How the results depend on the processing

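Over the settings other than leaving out a library, 313 member values kept direction and side of the threshold, 18 lost a call, 10 gained one and 4 reversed. Those were Igf1r in CR_cisplatin against vehicle after rescaling (-0.01) and Sirt1 with the title code as a term (-0.13 in cisplatin against vehicle, 0.02 in CR_cisplatin and 0.04 in HP_cisplatin against BL_cisplatin). With that term, counts of called members fell to 2 in cisplatin against vehicle, 2 in CR_cisplatin and 0 in HP_cisplatin against BL_cisplatin, counts of called pathway genes to 20, 35 and 0, and the share of all genes called to 22.7%, 42.1% and 0%. With only the groups compared, HP_cisplatin against BL_cisplatin gave 0 members and 0 pathway genes (0% of all genes). HP_cisplatin against vehicle then gave 0 pathway genes (0.0733% of all genes). There, no filter gave 12 pathway genes (9.18% of all genes), a filter of 5 TPM gave 1 member (37.4%) and voom 2 (33.7%). The cause was not tested. Leaving out each library in turn gave 1 to 5 members and 12 to 56 pathway genes in HP_cisplatin against BL_cisplatin. The share of all genes called there ran from 14.7% to 47.7%. In HP_cisplatin against vehicle the counts were 0 to 3 and 5 to 45, beside 4.61% to 51.3% of all genes. Values that crossed 0 when a library was left out were, in CR_cisplatin against vehicle, Ddit4 (-0.08 to 0.39), Igf1r (-0.05 to 0.05), Igfbp1 (-0.21 to 0.09), Irs2 (-0.32 to 0.39) and Sirt5 (-0.07 to 0.03). Elsewhere they were Foxo1 in CR_cisplatin against BL_cisplatin (-0.07 to 0.05), Foxo3 in cisplatin (-0.03 to 0.08) and HP_cisplatin (-0.05 to 0.23) against vehicle and in HP_cisplatin against BL_cisplatin (-0.06 to 0.22), and Igfbp1 in HP_cisplatin against vehicle (-0.31 to 0.06). All 10 members stayed uncalled in CR_cisplatin against vehicle under every setting run. No paired analysis was possible because the labels number no replicates. Igfbp1, at 15 to 125 reads per library, is the member whose precision depth limits most.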
